A study of Mus musculus with 15 samples.

Results

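Peptide hormone cells store their product in dense-core granules and release it when calcium enters the cell. Messenger RNA of 33 genes of this regulated secretory pathway was followed in newborn mouse pituitary: granins and other granule cargo, cargo-processing enzymes, granule membrane proteins, calcium sensors, the SNARE fusion proteins with their regulators, and the Rab GTPases and priming factors that dock granules. The genes were taken from a list by symbol, and each was represented by the probe set with the highest mean over the 15 arrays. All 33 were measured, among 18193 genes in all.

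Granins are acidic proteins that aggregate with prohormones in the trans-Golgi network and help granules form. Convertases and carboxypeptidases inside the granule trim prohormones to active peptides. Docked granules fuse when the SNARE proteins of granule and plasma membrane zip together, which Rab3 and Rab27 effectors, priming factors and complexins prepare and synaptotagmins trigger on binding calcium. Every hormone cell of the anterior pituitary uses this pathway, and so do neurons.

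Total RNA of whole pituitaries was pooled by genotype on postnatal day 1, and each of 15 pools was hybridised to 1 Affymetrix Mouse Genome 430 2.0 array. The groups were 5 pools of Prop1df/df mice on the DF/B strain, 5 pools of Pit1dw/dw mice on the DW/J strain (Snell dwarf, homozygous for the dw allele of Pit1) and 5 pools of Pit1+/+ mice, also DW/J. All mice received a high fat laboratory chow. Pit1 is a pituitary transcription factor needed for growth hormone, prolactin and thyrotropin cells. Both mutant genotypes are germline and homozygous, and no source used here gives the number of pituitaries in a pool. In each comparison with Prop1df/df, genotype and strain differ together and cannot be told apart, because no unaffected DF/B pools were analysed here. Fewer cells of a type and less RNA per cell cannot be told apart in whole-gland RNA.

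Values below are the authors' log2 RMA signals, listed in the order of pools 1 to 5, and a difference of 1 is a 2-fold difference. Changes are limma estimates with standard error (SE), from 1 fit of all 15 arrays, and adjusted p is its moderated two-sided test after Benjamini-Hochberg adjustment over 18193 genes, called below 0.05. Array medians lay between 4.31 and 4.43, and correlations between pools of a group between 0.956 and 0.993. The p-values measure the spread between pools. Where pools of different groups are said not to overlap, the share of all genes without overlap is not given. Where a call is said to be lost, or to pass, without a named pool, the value in parentheses is the adjusted p without it.

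Hormone genes did not all follow the labels. Gh, the growth hormone gene, had 13.58, 14.07, 14.03, 8.99 and 10.24 in Prop1df/df pools, 9.76, 9.13, 7.75, 7.15 and 10.31 in Pit1dw/dw pools and 14.22, 14.26, 14.19, 14.28 and 14.15 in Pit1+/+ pools. Tshb, the thyrotropin subunit, had 9.83, 9.89, 9.68, 6.28 and 7.17 in Prop1df/df pools, 6.93, 7.01, 6.20, 6.99 and 6.72 in Pit1dw/dw pools and 11.91, 12.29, 11.67, 11.90 and 11.77 in Pit1+/+ pools. The libraries labelled Prop1df/df 1, 2 and 3 thus carried both RNAs well above Prop1df/df pools 4 and 5, and below every Pit1+/+ pool. Hesx1, a homeobox gene of the early pituitary, was at 5.15, 5.67, 4.40, 5.90 and 5.93 in Prop1df/df pools, and at 2.56 to 3.15 in Pit1dw/dw pools and 2.79 to 3.05 in Pit1+/+ pools, so for Hesx1 all 5 Prop1df/df libraries stood apart. Group names follow the labels, and results that rest on Prop1df/df pools 1 to 3 are also given without them. Pit1+/+ pool 1 carries a genotype entry that differs from its title, source and strain. It was kept in its titled group, where it lay at 0.0331 on a scale from 0 at the other Pit1+/+ pools to 1 at Pit1dw/dw (66 genes), and at 0.0260 on the same scale to Prop1df/df (519 genes). The mutated genes themselves were not analysed here.

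**Figure D1:**
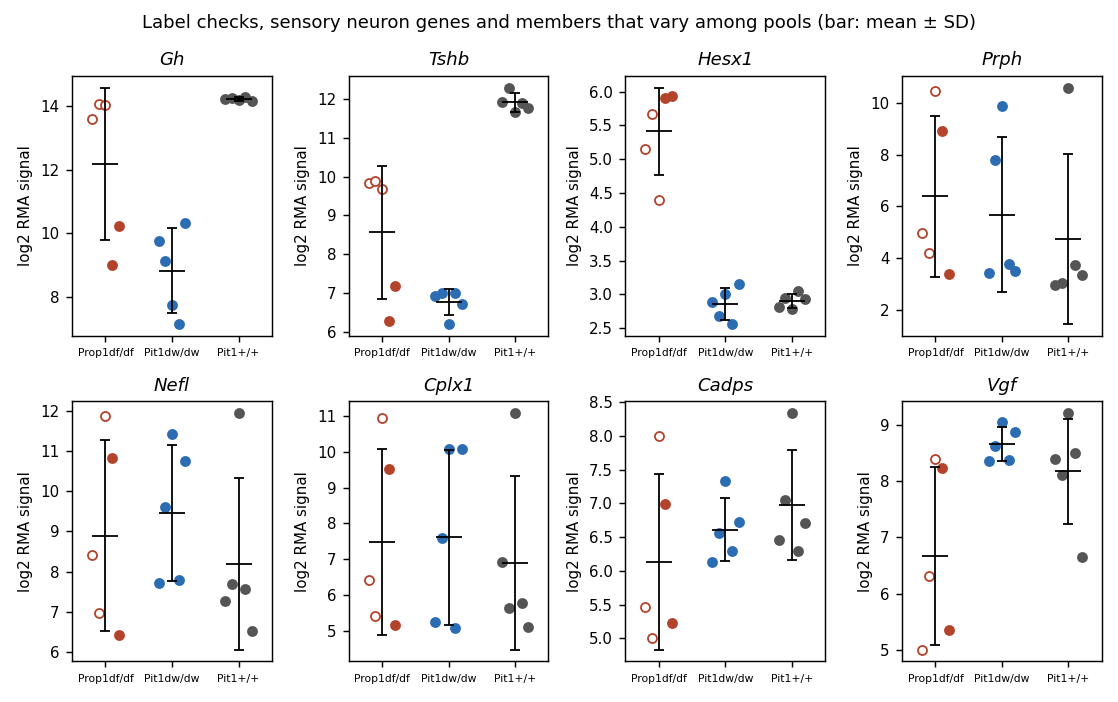
Log2 RMA signal (y axis) of label-check genes (Gh, Tshb, Hesx1), sensory neuron genes (Prph, Nefl) and 3 secretion genes (Cplx1, Cadps, Vgf) in each pool of Prop1df/df, Pit1dw/dw and Pit1+/+ pituitaries. Open circles are Prop1df/df pools 1 to 3, bars are mean ± SD of 5 pools, and the highest Cplx1 value of Prop1df/df and of Pit1+/+ is in the pool with the highest Prph.

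Genes of neurons, bone and cartilage varied among the pools. Prph, which encodes the neurofilament protein peripherin of sensory and autonomic neurons, exceeded 7 in Prop1df/df pools 3 and 4, Pit1dw/dw pools 2 and 3 and Pit1+/+ pool 3, and was at 4.96 or lower in the other 10. The mean of 16 measured ganglion and Schwann cell genes, each relative to its mean over all arrays, ran from -1.40 to 2.63 in Prop1df/df pools, from -1.14 to 2.11 in Pit1dw/dw pools and from -1.95 to 2.82 in Pit1+/+ pools. The mean of 11 bone and cartilage genes ran from -0.13 to 1.68 in Prop1df/df pools, from -0.86 to 0.76 in Pit1dw/dw pools and from -1.66 to 0.47 in Pit1+/+ pools. It thus tended to be higher in Prop1df/df pools, beside every lower gene below, although the ranges of this mean overlapped in all groups. Of its genes, Col2a1 did not overlap, at 8.21 to 10.51 in Prop1df/df, 6.71 to 7.42 in Pit1dw/dw and 6.23 to 7.57 in Pit1+/+ pools. Others did, such as Ibsp, at 7.50 to 10.79, 4.09 to 10.07 and 3.03 to 9.69 in the same order. The part of the list mean in those results was examined only as a covariate. The gonadotropin and proopiomelanocortin genes were lower in Prop1df/df pools as well, with an adjusted p against Pit1+/+ of 0.0111 for Lhb, 0.00994 for Fshb, 0.000381 for Cga and 0.0241 for Pomc. Lhb averaged 5.75 ± 1.36 in Prop1df/df, 8.99 ± 1.66 in Pit1dw/dw and 9.07 ± 1.06 in Pit1+/+ pools (SD, n = 5 each). Cga averaged 11.28 ± 0.46, 12.25 ± 0.45 and 12.80 ± 0.18 and Pomc 13.54 ± 0.21, 14.12 ± 0.06 and 13.93 ± 0.11 in the same order of groups. Fshb averaged 4.87 ± 0.44, 6.90 ± 1.59 and 7.59 ± 1.01, and Prl 3.12 ± 0.29, 3.04 ± 0.13 and 4.29 ± 0.42, again in that order. The part of the makeup of hormone cells in the results below was not tested. The sex makeup of the pools was uneven as well. Xist, an RNA of female cells, was at 4.20 and 3.89 in Pit1dw/dw pools 2 and 3 and at 3.69 in Pit1+/+ pool 4, and at 8.55 or higher elsewhere. The Y-linked Eif2s3y was at 3.05 in Pit1+/+ pool 1 and 5.85 in Prop1df/df pool 1, and at 8.45 or higher elsewhere. Xist therefore served as a covariate in an alternative fit.

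Most of the calls among the 33 genes were in Prop1df/df comparisons, and all of those were lower. In Prop1df/df against Pit1+/+ pools 14 of 33 genes (42.4%) fell and none rose, where 7.31% of all genes fell and 3.25% rose (10.6% in either direction). In Prop1df/df against Pit1dw/dw pools 11 of 33 (33.3%) fell and none rose, where 4.05% of all genes fell and 2.21% rose (6.26% in either direction). In Pit1dw/dw against Pit1+/+ pools 1 gene rose, Scgn, and 1 fell, Chgb, where 0.165% of all genes rose and 0.605% fell (0.77% in either direction). The median log2 change over the 33 genes was -0.63 in Prop1df/df against Pit1+/+ (-0.04 over all genes), -0.47 in Prop1df/df against Pit1dw/dw (-0.02 over all genes) and -0.05 in Pit1dw/dw against Pit1+/+ (-0.02 over all genes). The comparisons share samples, so they are given side by side and not as support of each other. The list was chosen with earlier results of these data known, so these shares are descriptions and not a test of the pathway.

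**Figure D2:**
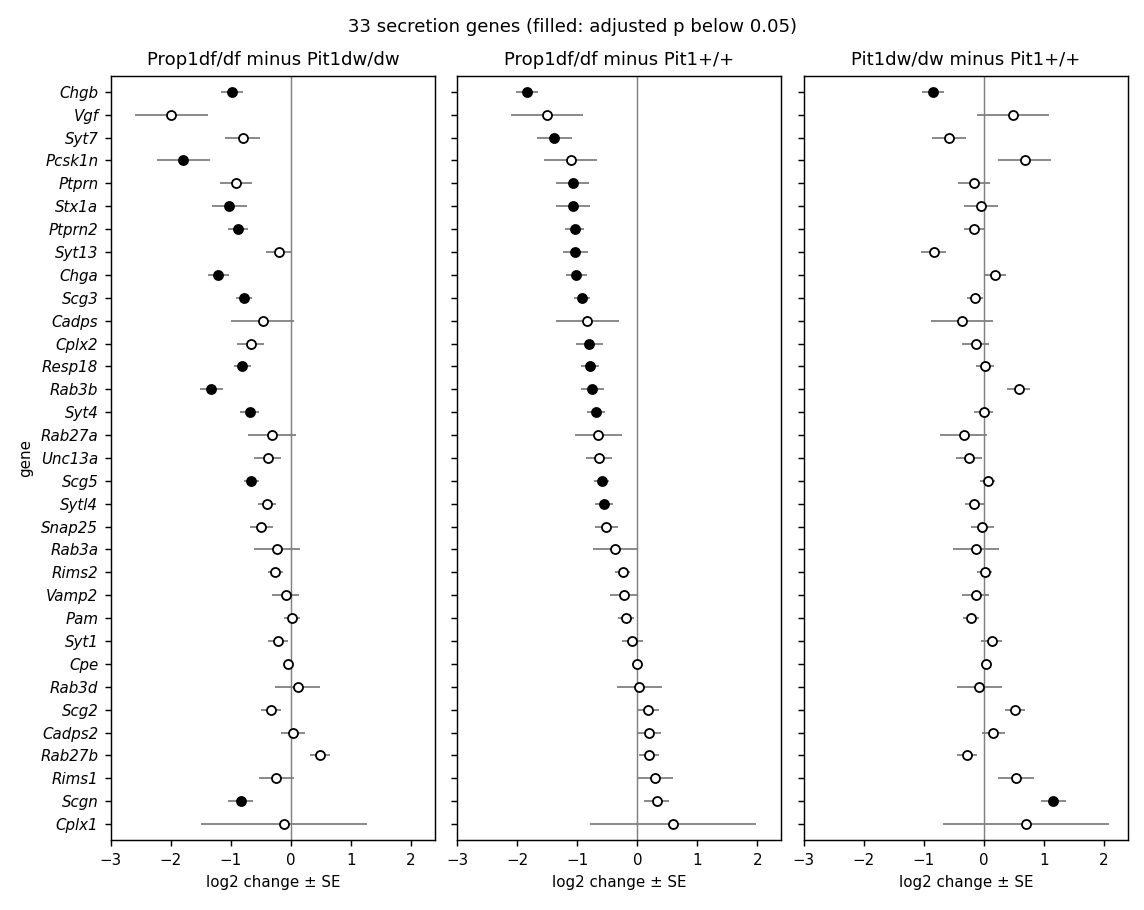
Log2 change ± SE (x axis) of each of the 33 secretion genes (y axis) for Prop1df/df minus Pit1dw/dw, Prop1df/df minus Pit1+/+ and Pit1dw/dw minus Pit1+/+. Filled points have an adjusted p below 0.05, and all filled points in both Prop1df/df panels lie left of 0.

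Without Prop1df/df pools 1 to 3, that is with pools 4 and 5 alone, 5 of the 33 genes fell against Pit1+/+ (3.3% of all genes fell) and 5 against Pit1dw/dw (1.52% of all genes fell). Against Pit1+/+ these were Chgb (log2 change -2.27, adjusted p = 4.77e-06), Scg3 (log2 change -0.95, adjusted p = 0.0103), Ptprn2 (log2 change -1.02, adjusted p = 0.0145), Chga (log2 change -1.10, adjusted p = 0.0241) and Resp18 (log2 change -0.86, adjusted p = 0.0316). Against Pit1dw/dw they were Chgb (log2 change -1.42, adjusted p = 0.000356), Chga (log2 change -1.30, adjusted p = 0.014), Rab3b (log2 change -1.19, adjusted p = 0.0331), Scg3 (log2 change -0.81, adjusted p = 0.0343) and Resp18 (log2 change -0.88, adjusted p = 0.0391). The 9 genes that missed the threshold against Pit1+/+ in that setting had log2 changes between -1.25 for Syt7 and -0.39 for Sytl4, all still below 0, and adjusted p between 0.0597 for Syt7 and 0.328 for Sytl4. Between them lay Ptprn (0.0664), Stx1a (0.0687), Scg5 (0.0862), Syt13 (0.1), Syt4 (0.102), Cplx2 (0.145) and Rab3b (0.263). The 6 that missed it against Pit1dw/dw had adjusted p between 0.0503 for Ptprn2 and 0.491 for Scgn, whose log2 change was -0.42 against -0.84 with all pools. Scg5 (0.0816), Stx1a (0.117), Syt4 (0.139) and Pcsk1n (0.213) lay between Ptprn2 and Scgn.

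**Figure D3:**
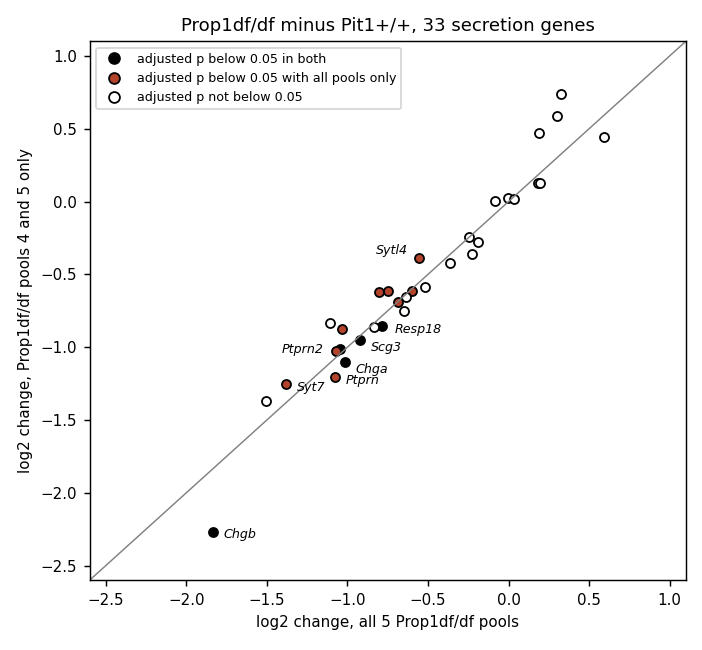
Log2 change of the 33 secretion genes in Prop1df/df minus Pit1+/+ with all 5 Prop1df/df pools (x axis) and with pools 4 and 5 only (y axis). Black points have an adjusted p below 0.05 in both, red points only with all pools, and the line marks equal values. Chgb lies lowest in both, at -1.84 and -2.27.

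Among the granins, Chgb separated all 3 groups. Chgb encodes chromogranin B, a granule matrix protein of endocrine cells. Its signals were 10.45, 10.88, 11.02, 10.07 and 10.04 in Prop1df/df pools, 11.73, 11.51, 11.34, 11.43 and 11.39 in Pit1dw/dw pools and 12.32, 12.64, 12.13, 12.44 and 12.11 in Pit1+/+ pools. Every Prop1df/df pool lay below every Pit1dw/dw pool, and every Pit1dw/dw pool below every Pit1+/+ pool. Chgb fell in Prop1df/df against Pit1+/+ (log2 change -1.84, SE 0.18, adjusted p = 1.03e-05), a 3.57-fold difference, and against Pit1dw/dw (log2 change -0.99, SE 0.18, adjusted p = 0.00302). Both calls held under all 29 alternative settings. Chgb also fell in Pit1dw/dw against Pit1+/+, on the same strain (log2 change -0.85, SE 0.18, adjusted p = 0.0396), but that call was close to the threshold. It was lost without Prop1df/df pool 1 (adjusted p = 0.0531), without any single Pit1dw/dw pool (0.0537 to 0.111) and without Pit1+/+ pool 1, 2 or 4 (0.0941 to 0.114), with a log2 change between -0.91 and -0.77 in all alternatives.

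Chga, for chromogranin A, the granin most used as a marker of endocrine cells, was low in the Prop1df/df pools. It had 10.27, 10.72, 10.41, 10.49 and 10.15 in Prop1df/df pools, 11.62, 11.85, 11.64, 11.63 and 11.35 in Pit1dw/dw pools and 11.57, 11.77, 11.21, 11.79 and 10.78 in Pit1+/+ pools. The highest Prop1df/df pool lay below the lowest pool of either other group, the nearest being Pit1+/+ pool 5. Chga fell against Pit1+/+ (log2 change -1.02, SE 0.18, adjusted p = 0.0017) and against Pit1dw/dw (log2 change -1.21, SE 0.18, adjusted p = 0.000504), under all 29 alternatives. Pit1dw/dw and Pit1+/+ pools overlapped (log2 change 0.19, SE 0.18, adjusted p = 0.875).

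Scg2, for secretogranin II, was not called in any comparison. It had 10.82, 10.81, 10.25, 10.43 and 10.64 in Prop1df/df pools, 11.13, 10.97, 10.69, 11.00 and 10.83 in Pit1dw/dw pools and 10.42, 11.00, 10.03, 10.41 and 10.17 in Pit1+/+ pools. Its pools overlapped in every pair of groups, with the Pit1dw/dw pools towards the top (log2 change 0.52, SE 0.17, adjusted p = 0.286 in Pit1dw/dw against Pit1+/+, and log2 change 0.19, SE 0.17, adjusted p = 0.542 in Prop1df/df against Pit1+/+).

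Promoter sequences of the granins are shown because Chgb and Chga fell in Prop1df/df pools and Scg2 did not pass the test, while all 3 hold a cyclic AMP response element or a near match close to the start. That of Ptprn2, which also fell, is shown for an element it shares with Scg2. RefSeq windows of build GRCm38.p6, from 250 bases before to 50 after the transcription start, were found for 24 of the 33 genes. Capitals mark matches of either strand to TGACGTNA (Chgb, Chga, Scg2), the cyclic AMP response element with 1 free base, and to TTCAGCACC, the left part of the repressor element bound by REST (Scg2, Ptprn2).
Chgb, chr2:132781392-132781691, plus strand: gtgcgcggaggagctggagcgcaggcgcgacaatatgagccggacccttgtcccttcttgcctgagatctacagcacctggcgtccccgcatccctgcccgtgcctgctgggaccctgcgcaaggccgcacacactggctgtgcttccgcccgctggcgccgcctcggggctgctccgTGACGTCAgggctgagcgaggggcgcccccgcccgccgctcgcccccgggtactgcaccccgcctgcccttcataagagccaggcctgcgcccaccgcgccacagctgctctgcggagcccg
Chga, chr12:102554691-102554990, plus strand: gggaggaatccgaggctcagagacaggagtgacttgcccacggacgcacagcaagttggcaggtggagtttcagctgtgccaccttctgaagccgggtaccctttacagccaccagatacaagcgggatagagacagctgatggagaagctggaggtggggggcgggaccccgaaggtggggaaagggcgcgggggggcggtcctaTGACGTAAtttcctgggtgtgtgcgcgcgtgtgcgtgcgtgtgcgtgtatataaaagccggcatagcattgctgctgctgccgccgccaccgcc
Scg2, chr1:79439977-79440276, minus strand: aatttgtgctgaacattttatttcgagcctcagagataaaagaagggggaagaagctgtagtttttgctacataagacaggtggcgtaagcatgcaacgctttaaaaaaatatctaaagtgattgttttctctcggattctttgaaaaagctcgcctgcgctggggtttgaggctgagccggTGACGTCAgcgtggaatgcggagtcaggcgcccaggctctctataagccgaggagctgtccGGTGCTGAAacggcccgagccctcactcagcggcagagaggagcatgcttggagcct
Ptprn2, chr12:116485470-116485769, plus strand: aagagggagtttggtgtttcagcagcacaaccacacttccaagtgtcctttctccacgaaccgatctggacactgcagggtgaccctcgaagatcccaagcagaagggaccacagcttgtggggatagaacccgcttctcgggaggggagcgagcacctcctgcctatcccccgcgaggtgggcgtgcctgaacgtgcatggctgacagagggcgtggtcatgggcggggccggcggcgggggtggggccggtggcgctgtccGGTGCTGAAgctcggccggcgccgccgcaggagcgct

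The full palindrome TGACGTCA stands 72 to 65 bases before the start of Chgb and 68 to 61 bases before that of Scg2, and Chga has a TGACGTNA match 44 to 37 bases before its start. TGACGTCA, which is contained in TGACGTNA, occurred in 2 of the 24 genes and in 1.79% of 32851 windows of the same length. TGACGTNA occurred in 4 of the 24, the other being Rab3a, and in 2.93% of all windows. TTCAGCACC occurred, as its reverse complement in the strand printed, in 3 of the 24 (Scg2, Ptprn2 and Unc13a) and in 0.371% of all windows. These matches are descriptions of letters in the windows, and genes with a match include both called and uncalled members.

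Of the 5 other cargo genes, 3 fell in both Prop1df/df comparisons, which share the Prop1df/df pools. Of all genes 7.31% fell against Pit1+/+ and 4.05% against Pit1dw/dw, and the share that fell in both is not given. Scg3, for secretogranin III, which ties chromogranin A to the granule membrane, had 9.49, 9.65, 9.93, 9.88 and 9.40 in Prop1df/df pools, 10.56, 10.38, 10.54, 10.39 and 10.37 in Pit1dw/dw pools and 10.58, 10.96, 10.52, 10.66 and 10.24 in Pit1+/+ pools. Scg5, for 7B2, the chaperone of prohormone convertase 2, had 11.01, 11.24, 11.08, 11.40 and 10.76 in Prop1df/df pools, 11.72, 11.71, 11.60, 11.83 and 11.92 in Pit1dw/dw pools and 11.70, 12.04, 11.54, 11.65 and 11.53 in Pit1+/+ pools. Resp18, a regulated endocrine-specific protein of the granule, had 9.96, 10.33, 10.12, 10.14 and 9.90 in Prop1df/df pools, 10.79, 11.21, 10.87, 10.84 and 10.79 in Pit1dw/dw pools and 11.02, 11.29, 10.71, 10.93 and 10.44 in Pit1+/+ pools. For all 3, every Prop1df/df pool lay below every pool of both other groups, while Pit1dw/dw and Pit1+/+ pools overlapped. Scg3 fell against Pit1+/+ (log2 change -0.92, SE 0.13, adjusted p = 0.000376) and against Pit1dw/dw (log2 change -0.78, SE 0.13, adjusted p = 0.00182), under all 29 alternatives. Scg5 (log2 change -0.60, SE 0.13, adjusted p = 0.00702) and Resp18 (log2 change -0.79, SE 0.15, adjusted p = 0.00256) fell against Pit1+/+, and also against Pit1dw/dw, by 0.66 (adjusted p = 0.00465) and 0.81 (adjusted p = 0.00264). With the means of both marker lists (ganglion, bone) as covariates, the calls against Pit1+/+ were lost for Scg5 (log2 change -0.44, adjusted p = 0.111) and Resp18 (log2 change -0.63, adjusted p = 0.0501). Against Pit1dw/dw the same covariates lost the call of Scg5 (log2 change -0.52, adjusted p = 0.0681), and leaving out the pools whose Prph exceeded 7 lost that of Resp18 (log2 change -0.75, adjusted p = 0.0757). Both calls of Scg5 were also lost without Prop1df/df pools 1 to 3 (log2 change -0.61, adjusted p = 0.0862 and log2 change -0.68, adjusted p = 0.0816).

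Pcsk1n, for proSAAS, an inhibitor of prohormone convertase 1, had 6.29, 7.87, 8.15, 8.32 and 7.48 in Prop1df/df pools, 9.04, 9.51, 9.57, 9.55 and 9.39 in Pit1dw/dw pools and 9.24, 9.19, 9.12, 9.30 and 6.80 in Pit1+/+ pools. All Prop1df/df pools lay below all Pit1dw/dw pools, and Pit1+/+ pool 5 stood far below the other 4 of its group. Pcsk1n fell against Pit1dw/dw (log2 change -1.79, SE 0.44, adjusted p = 0.0227), a call lost without Prop1df/df pool 1 (0.0581) or 5 (0.0521) or Pit1dw/dw pool 2, 3 or 4 (0.0535 to 0.0568). It was also lost without Prop1df/df pools 1 to 3 (log2 change -1.52, adjusted p = 0.213). Against Pit1+/+ it was not called (log2 change -1.11, SE 0.44, adjusted p = 0.131), nor in 27 of 29 alternatives. Without Pit1+/+ pool 5 the change was log2 change -1.59, adjusted p = 0.00273. That pool stands out by its Pcsk1n value itself, so this adjusted p describes the pool's weight and is not a separate test.

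Vgf, which encodes a neuroendocrine peptide precursor, varied most within Prop1df/df among the cargo genes, with 5.01, 6.32, 8.39, 8.23 and 5.37 in Prop1df/df pools, 8.36, 8.62, 9.05, 8.38 and 8.88 in Pit1dw/dw pools and 8.39, 8.11, 9.20, 8.50 and 6.65 in Pit1+/+ pools. The 2 high Prop1df/df pools, 3 and 4, were those with high Prph. Vgf was not called against Pit1+/+ (log2 change -1.51, SE 0.60, adjusted p = 0.131) or Pit1dw/dw (log2 change -1.99, SE 0.60, adjusted p = 0.0635). Without Prop1df/df pool 3 both differences passed, at log2 change -1.94, adjusted p = 0.0359 and log2 change -2.43, adjusted p = 0.0171, and so did they without Pit1+/+ pool 5 (log2 change -1.89, adjusted p = 0.0383 and log2 change -1.99, adjusted p = 0.0374). Without Prop1df/df pool 4 the difference from Pit1dw/dw passed (log2 change -2.39, adjusted p = 0.0246). With every pool whose Prph exceeded 7 left out, the change against Pit1+/+ was log2 change -2.35, adjusted p = 0.00765.

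**Figure D4:**
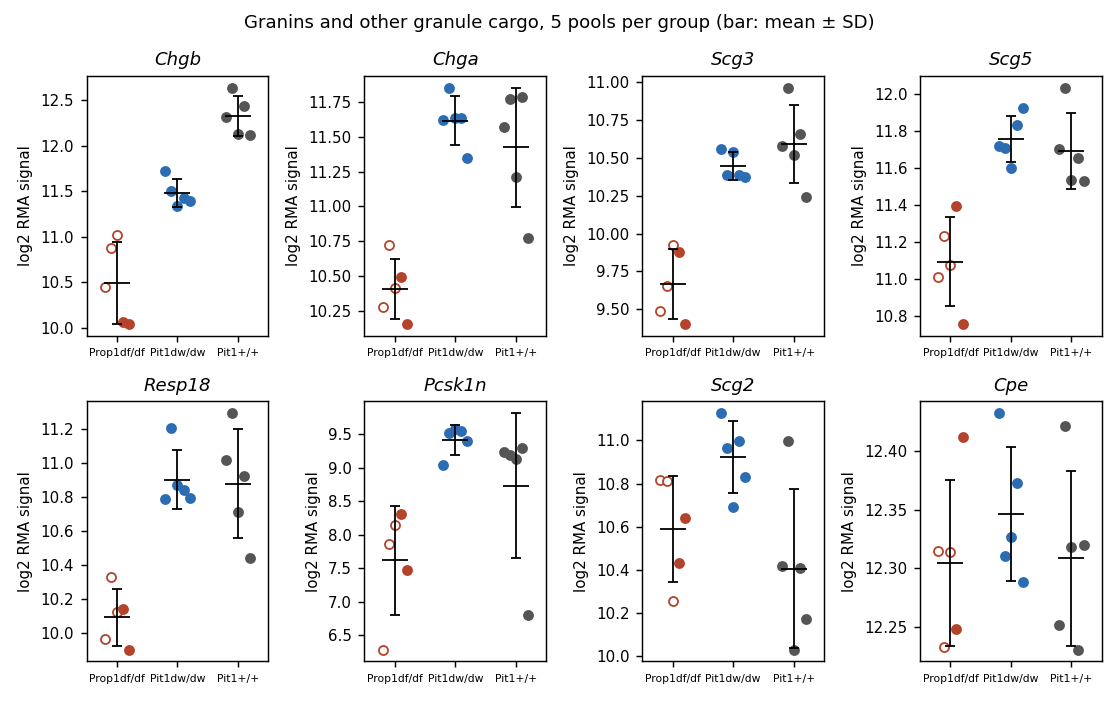
Log2 RMA signal (y axis) of 7 granule cargo genes and the processing enzyme gene Cpe in each pool of Prop1df/df, Pit1dw/dw and Pit1+/+ pituitaries. Open circles are Prop1df/df pools 1 to 3, and bars are mean ± SD of 5 pools. Chgb, Chga, Scg3, Scg5 and Resp18 show no overlap of Prop1df/df with either other group, while Cpe pools lie between 12.23 and 12.43 in all groups. The share of all genes without such overlap is not given.

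The cargo-processing enzymes Cpe and Pam were not called in any comparison, and of all genes at most 10.6% were called in a comparison. Cpe, the carboxypeptidase that removes basic residues from cut prohormones, had 12.31, 12.23, 12.31, 12.25 and 12.41 in Prop1df/df pools, 12.43, 12.31, 12.33, 12.37 and 12.29 in Pit1dw/dw pools and 12.25, 12.42, 12.32, 12.23 and 12.32 in Pit1+/+ pools. The ranges of all groups overlapped (log2 change -0.0041, SE 0.08, adjusted p = 0.983 in Prop1df/df against Pit1+/+). Pam, the enzyme that amidates peptide ends, had 5.50, 5.49, 5.02, 5.06 and 5.32 in Prop1df/df pools, 5.48, 5.33, 5.22, 5.21 and 5.04 in Pit1dw/dw pools and 5.21, 5.53, 5.33, 5.54 and 5.73 in Pit1+/+ pools, again with overlap (log2 change -0.19, SE 0.13, adjusted p = 0.401 in Prop1df/df against Pit1+/+).

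Both granule membrane genes fell in Prop1df/df against Pit1+/+ pools, where 7.31% of all genes fell. Without Prop1df/df pools 1 to 3 Ptprn2 still passed (adjusted p = 0.0145) and Ptprn did not (adjusted p = 0.0664). Ptprn2 encodes phogrin, a phosphatase-like protein that spans the granule membrane, and had 7.71, 8.00, 8.45, 8.23 and 7.98 in Prop1df/df pools, 8.99, 9.04, 9.01, 9.04 and 8.69 in Pit1dw/dw pools and 9.20, 9.52, 9.14, 9.18 and 8.58 in Pit1+/+ pools. No Prop1df/df pool reached any pool of the other groups. Ptprn2 fell against Pit1+/+ (log2 change -1.05, SE 0.17, adjusted p = 0.000681) and against Pit1dw/dw (log2 change -0.88, SE 0.17, adjusted p = 0.00346). The mean with its second, dim probe set (mean signal 3.14) gave log2 change -0.60, adjusted p = 0.00495 and log2 change -0.43, adjusted p = 0.0485. Ptprn encodes its relative IA-2, and had 5.63, 6.61, 6.75, 6.57 and 5.67 in Prop1df/df pools, 7.22, 7.34, 7.44, 7.03 and 6.77 in Pit1dw/dw pools and 7.75, 7.55, 7.22, 7.70 and 6.41 in Pit1+/+ pools. Prop1df/df overlapped Pit1+/+ through Pit1+/+ pool 5 and lay wholly below Pit1dw/dw. Ptprn fell against Pit1+/+ (log2 change -1.08, SE 0.27, adjusted p = 0.0178), not without Prop1df/df pool 1 (0.0533) or 5 (0.0509) or Pit1+/+ pool 4 (0.0508). Against Pit1dw/dw it was not called (log2 change -0.92, SE 0.27, adjusted p = 0.0597), and passed without Prop1df/df pool 3 (0.0364) or Pit1+/+ pool 5 (0.0184).

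Of the 4 synaptotagmins, 3 fell in Prop1df/df against Pit1+/+ pools, where 7.31% of all genes fell. Without Prop1df/df pools 1 to 3 none of the 3 passed (adjusted p = 0.102 for Syt4, 0.0597 for Syt7 and 0.1 for Syt13). Syt4, a synaptotagmin found on maturing granules of neuroendocrine cells, had 8.07, 7.67, 8.01, 8.18 and 7.64 in Prop1df/df pools, 8.61, 8.81, 8.54, 8.42 and 8.62 in Pit1dw/dw pools and 8.20, 9.10, 8.45, 8.60 and 8.66 in Pit1+/+ pools. Every Prop1df/df pool was below every other pool, with Pit1+/+ pool 1 the closest. Syt4 fell against Pit1+/+ (log2 change -0.69, SE 0.16, adjusted p = 0.00919) and against Pit1dw/dw (log2 change -0.69, SE 0.16, adjusted p = 0.0134), calls lost with the ganglion and bone covariates (log2 change -0.51, adjusted p = 0.122 and log2 change -0.51, adjusted p = 0.141). A second Syt4 probe set, with a mean signal of 7.13, was not called against Pit1+/+ (log2 change -0.51, adjusted p = 0.198 over all probe sets).

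Syt7, a high-affinity calcium sensor of granule release, had 8.50, 8.76, 9.85, 9.00 and 9.52 in Prop1df/df pools, 10.57, 9.94, 9.99, 9.92 and 9.24 in Pit1dw/dw pools and 10.63, 10.36, 11.05, 10.72 and 9.79 in Pit1+/+ pools. Prop1df/df pool 3 alone passed the lowest Pit1+/+ pool. Syt7 fell against Pit1+/+ (log2 change -1.38, SE 0.29, adjusted p = 0.00525) and was not called against Pit1dw/dw (log2 change -0.81, SE 0.29, adjusted p = 0.118), where it passed without Prop1df/df pool 3 (0.0457). Its 3 other probe sets gave -1.45, -1.08 and -0.34 against Pit1+/+, the last on a probe set with a mean signal of 3.37. Against Pit1dw/dw the first of them gave log2 change -1.24, adjusted p = 0.00577 and the second log2 change -0.83, adjusted p = 0.0035 over all probe sets, both past the threshold that the brightest probe set missed, while the dim one gave log2 change -0.01, adjusted p = 0.981.

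Syt13, a synaptotagmin without the usual calcium-binding residues, lay low in both mutants but was called only in Prop1df/df. It had 6.96, 7.31, 7.76, 8.02 and 7.20 in Prop1df/df pools, 7.19, 7.82, 7.52, 7.58 and 8.13 in Pit1dw/dw pools and 8.50, 8.96, 8.28, 8.40 and 8.28 in Pit1+/+ pools. Both mutants lay wholly below Pit1+/+ and overlapped each other. Syt13 fell in Prop1df/df against Pit1+/+ (log2 change -1.03, SE 0.21, adjusted p = 0.00494), was not called in Pit1dw/dw against Pit1+/+ (log2 change -0.84, SE 0.21, adjusted p = 0.111) and not between the mutants (log2 change -0.20, SE 0.21, adjusted p = 0.655). The Pit1dw/dw difference stayed uncalled in 27 of 29 alternatives. Array weights (log2 change -0.80, adjusted p = 0.0156) and the 3' minus 5' signal of control genes as a covariate (log2 change -0.94, adjusted p = 0.0333) brought it past the threshold. Array weights also raised the calls over all genes in that comparison from 140 to 571. The mean with its second, dim probe set gave log2 change -0.54, adjusted p = 0.0455 in Prop1df/df against Pit1+/+.

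Syt1, the fast calcium sensor of synaptic vesicles, had 7.70, 7.76, 8.17, 7.91 and 8.15 in Prop1df/df pools, 8.07, 8.28, 8.32, 8.14 and 7.96 in Pit1dw/dw pools and 8.15, 8.38, 8.42, 7.55 and 7.62 in Pit1+/+ pools, with all groups overlapping (log2 change -0.09, SE 0.17, adjusted p = 0.808 in Prop1df/df against Pit1+/+).

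Scgn was the 1 gene of the 33 that rose in a mutant. It encodes secretagogin, an EF-hand calcium-binding protein of neuroendocrine cells, and had 6.37, 6.52, 6.59, 7.03 and 7.35 in Prop1df/df pools, 7.43, 7.76, 7.26, 7.76 and 7.84 in Pit1dw/dw pools and 6.56, 6.92, 6.24, 6.58 and 5.95 in Pit1+/+ pools. All Pit1dw/dw pools lay above all Pit1+/+ pools, while Prop1df/df pools overlapped both. Scgn rose in Pit1dw/dw against Pit1+/+ (log2 change 1.16, SE 0.21, adjusted p = 0.0115), a 2.23-fold difference on the same strain. That call failed in 1 of 29 alternatives, with the pools of high Prph left out (log2 change 1.17, adjusted p = 0.179). Scgn fell in Prop1df/df against Pit1dw/dw (log2 change -0.84, SE 0.21, adjusted p = 0.0219), a call lost without Prop1df/df pool 1 (0.0636) or 2 (0.0624) or Pit1dw/dw pool 2, 4 or 5 (0.0588 to 0.0603). Against Pit1+/+ it was not called (log2 change 0.32, SE 0.21, adjusted p = 0.364), and the 2 highest Prop1df/df pools were 4 and 5, those with low Gh.

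Of the core SNARE genes, only the t-SNARE Stx1a was called. It fell in both Prop1df/df comparisons, where 7.31% of all genes fell against Pit1+/+ and 4.05% against Pit1dw/dw. Stx1a, for syntaxin 1A, had 7.78, 8.10, 9.49, 8.69 and 8.38 in Prop1df/df pools, 9.82, 9.55, 9.64, 9.56 and 9.01 in Pit1dw/dw pools and 9.68, 8.81, 10.06, 9.87 and 9.40 in Pit1+/+ pools. Prop1df/df pool 3, which had the highest Prph of its group, reached into both other groups, and the other 4 Prop1df/df pools lay below every pool of both. Stx1a fell against Pit1+/+ (log2 change -1.07, SE 0.29, adjusted p = 0.0247), a call lost without Prop1df/df pool 1, 2 or 5 (0.0544 to 0.0712) or Pit1+/+ pool 1, 3 or 4 (0.0545 to 0.0649). It fell against Pit1dw/dw (log2 change -1.03, SE 0.29, adjusted p = 0.0455), a call lost without Prop1df/df pool 1, 2, 4 or 5 (0.0583 to 0.122), Pit1dw/dw pool 1, 2, 3 or 4 (0.093 to 0.0967) or Pit1+/+ pool 1 or 4 (0.0564 and 0.0586). Neither call held without Prop1df/df pools 1 to 3 (log2 change -1.03, adjusted p = 0.0687 and log2 change -0.98, adjusted p = 0.117).

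Snap25, its t-SNARE partner, had 10.09, 10.11, 10.90, 10.35 and 10.14 in Prop1df/df pools, 10.86, 10.89, 10.82, 10.56 and 10.90 in Pit1dw/dw pools and 10.35, 11.12, 11.00, 10.47 and 11.22 in Pit1+/+ pools. Prop1df/df pool 3 was again the highest of its group, above 4 of the 5 Pit1dw/dw pools. Snap25 was not called against Pit1+/+ (log2 change -0.52, SE 0.19, adjusted p = 0.0946) or Pit1dw/dw (log2 change -0.49, SE 0.19, adjusted p = 0.146). Without Prop1df/df pool 3 it passed in both (log2 change -0.66, adjusted p = 0.0193 and log2 change -0.64, adjusted p = 0.0344), and without Pit1+/+ pool 1 in the first (log2 change -0.64, adjusted p = 0.0439). Vamp2, the granule-side SNARE synaptobrevin 2, had 8.21, 8.40, 8.58, 8.77 and 7.58 in Prop1df/df pools, 8.21, 8.60, 8.34, 8.40 and 8.45 in Pit1dw/dw pools and 8.34, 8.98, 8.45, 7.91 and 8.99 in Pit1+/+ pools, all overlapping (log2 change -0.23, SE 0.22, adjusted p = 0.585 in Prop1df/df against Pit1+/+).

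Complexins clamp the SNARE complex and then help it drive fusion. Cplx2 had 6.79, 7.24, 8.18, 7.81 and 7.62 in Prop1df/df pools, 7.97, 8.44, 8.35, 8.18 and 8.03 in Pit1dw/dw pools and 8.44, 8.47, 8.59, 8.44 and 7.73 in Pit1+/+ pools. Prop1df/df pools 3 and 4 lay above the lowest Pit1+/+ pool, pool 5. Cplx2 fell against Pit1+/+ (log2 change -0.80, SE 0.22, adjusted p = 0.0308), a call lost without Prop1df/df pool 1, 2 or 5 (0.0515 to 0.0799) or Pit1+/+ pool 1, 2, 3 or 4 (0.0678 to 0.0722). Without Prop1df/df pools 1 to 3 Cplx2 had log2 change -0.62, adjusted p = 0.145. Its next probe set gave log2 change -0.49, adjusted p = 0.472. Against Pit1dw/dw it was not called (log2 change -0.67, SE 0.22, adjusted p = 0.0958), and passed without Prop1df/df pool 3 (0.026). Cplx1 spanned 5.18 to 10.95 in Prop1df/df, 5.09 to 10.06 in Pit1dw/dw and 5.11 to 11.07 in Pit1+/+ pools, the widest range of the 33 genes in each group, and was not called in any comparison (log2 change 0.59, SE 1.39, adjusted p = 0.837 in Prop1df/df against Pit1+/+). Its values above 9 were in Prop1df/df pools 3 and 4, Pit1dw/dw pools 3 and 5 and Pit1+/+ pool 3, where the mean of the ganglion and Schwann cell genes was 2.63 and 1.70, 2.11 and 0.65, and 2.82. Pit1dw/dw pool 2, with a list mean of 0.66, had a Cplx1 of 7.58. Pit1dw/dw pool 5 had a Prph of only 3.51 but a high Nefl, for the light neurofilament protein, of 10.76. With the ganglion and bone covariates Cplx1 had in Prop1df/df against Pit1+/+ log2 change -1.37, adjusted p = 0.0911.

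**Figure D5:**
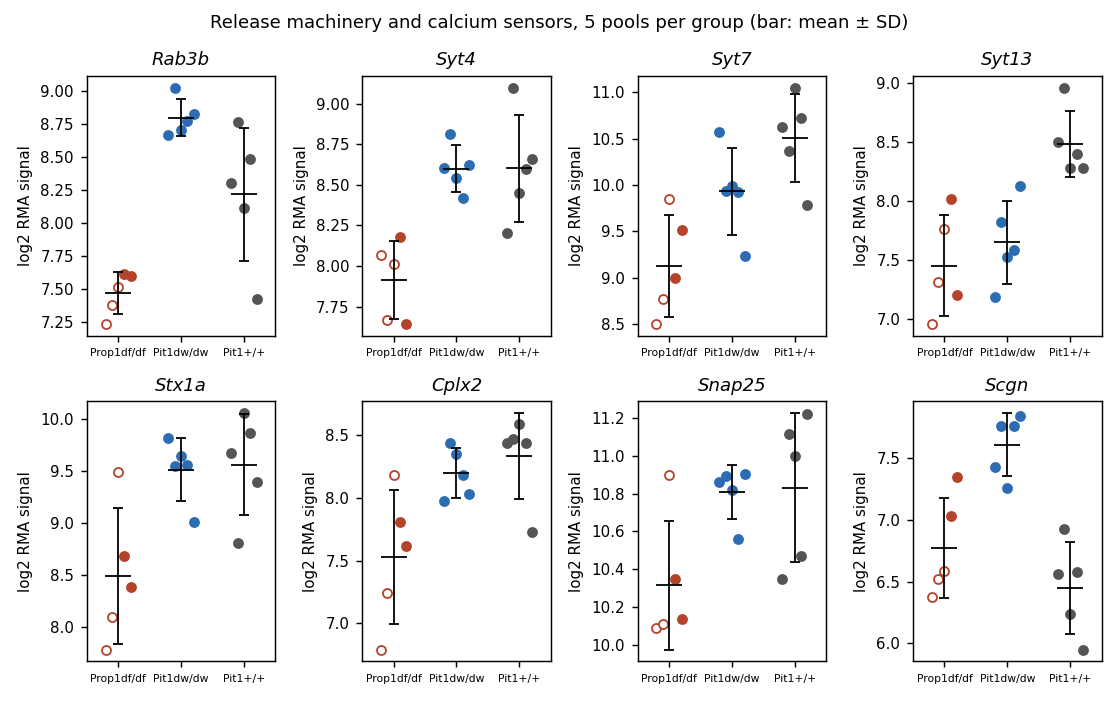
Log2 RMA signal (y axis) of 8 genes of granule docking, fusion and calcium sensing in each pool of Prop1df/df, Pit1dw/dw and Pit1+/+ pituitaries. Open circles are Prop1df/df pools 1 to 3, and bars are mean ± SD of 5 pools. Rab3b and Syt4 are lowest in Prop1df/df, Syt13 is low in both mutants but called only in Prop1df/df, and Scgn is highest in Pit1dw/dw.

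Among the Rab GTPases, Rab3b alone was called. It fell in both Prop1df/df comparisons, where 7.31% of all genes fell against Pit1+/+ and 4.05% against Pit1dw/dw. Rab3b is a granule Rab of the anterior pituitary, and had 7.23, 7.38, 7.52, 7.61 and 7.60 in Prop1df/df pools, 8.66, 9.03, 8.70, 8.77 and 8.82 in Pit1dw/dw pools and 8.30, 8.76, 8.11, 8.49 and 7.42 in Pit1+/+ pools. All Prop1df/df pools lay below all Pit1dw/dw pools, by more than 1 log2 unit, and overlapped Pit1+/+ through Pit1+/+ pool 5. Rab3b fell against Pit1dw/dw (log2 change -1.33, SE 0.19, adjusted p = 0.000417), under all 29 alternatives. Against Pit1+/+ it fell (log2 change -0.75, SE 0.19, adjusted p = 0.0179), a call lost without Prop1df/df pool 1 (0.0516) or Pit1+/+ pool 4 (0.0514). That call was also lost without Prop1df/df pools 1 to 3 (log2 change -0.61, adjusted p = 0.263). Pit1dw/dw was not called against Pit1+/+ (log2 change 0.58, SE 0.19, adjusted p = 0.294).

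Rab3a, the main Rab3 of neurons, had 6.99, 7.22, 8.66, 8.26 and 6.80 in Prop1df/df pools, 7.08, 7.74, 8.37, 7.61 and 8.30 in Pit1dw/dw pools and 8.03, 8.10, 8.77, 7.78 and 7.08 in Pit1+/+ pools. The groups overlapped throughout (log2 change -0.37, SE 0.38, adjusted p = 0.6 in Prop1df/df against Pit1+/+), and Prop1df/df pools 3 and 4 were the highest of their group. A second Rab3a probe set, of a kind that can detect several sequences, disagreed, with a log2 change of -1.32 against Pit1+/+ (adjusted p = 0.00164 over all probe sets). Rab27b, a Rab27 of secretory cells, had 7.08, 7.30, 7.75, 7.07 and 7.45 in Prop1df/df pools, 7.05, 6.87, 6.89, 6.83 and 6.62 in Pit1dw/dw pools and 6.83, 7.55, 7.42, 6.76 and 7.11 in Pit1+/+ pools. Its Prop1df/df pools lay above all Pit1dw/dw pools without a call (log2 change 0.48, SE 0.17, adjusted p = 0.111), and another Rab27b probe set changed the other way, at -0.58.

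Rab27a, the other Rab27, spanned 8.36 to 9.04 in Prop1df/df pools, 7.11 to 9.71 in Pit1dw/dw pools and 9.17 to 10.01 in Pit1+/+ pools. It was not called in Prop1df/df against Pit1+/+, whose pools did not overlap (log2 change -0.65, SE 0.39, adjusted p = 0.335). Without the low Pit1dw/dw pool 5 it passed against Pit1+/+ (log2 change -0.65, adjusted p = 0.023) and against Pit1dw/dw (log2 change -0.82, adjusted p = 0.014). Rab3d ran from 5.30 to 7.20 in Prop1df/df, 5.41 to 6.42 in Pit1dw/dw and 5.08 to 7.22 in Pit1+/+ pools, with no call.

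Sytl4, for granuphilin, the Rab27 effector that docks granules, had 9.03, 9.05, 8.59, 9.15 and 9.19 in Prop1df/df pools, 9.40, 9.66, 9.33, 9.49 and 9.10 in Pit1dw/dw pools and 9.36, 9.96, 9.24, 9.53 and 9.68 in Pit1+/+ pools. Prop1df/df lay below Pit1+/+ without overlap, by a small margin. Sytl4 fell against Pit1+/+ (log2 change -0.56, SE 0.15, adjusted p = 0.0286), a call lost without Prop1df/df pool 1, 2 or 3 (0.0515 to 0.0566) or Pit1+/+ pool 2 or 4 (0.0771 and 0.0545). The ganglion and bone covariates gave log2 change -0.26, adjusted p = 0.303. Its next probe set, a dim one with a mean signal of 3.68, gave log2 change -0.22, adjusted p = 0.36. Against Pit1dw/dw it was not called (log2 change -0.40, SE 0.15, adjusted p = 0.149).

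None of the 5 tethering and priming genes was called in any comparison. Of all genes 10.6% were called in Prop1df/df against Pit1+/+, 6.26% against Pit1dw/dw and 0.77% in Pit1dw/dw against Pit1+/+. The absence of calls among 5 genes is therefore not read as a trait of this class. Rims1 and Rims2 encode Rab3-binding scaffolds of release sites, Cadps and Cadps2 the CAPS priming factors of dense-core granules, and Unc13a the priming factor Munc13-1. Cadps2 spanned 9.74 to 10.99 in Prop1df/df, 10.20 to 10.61 in Pit1dw/dw and 9.92 to 10.63 in Pit1+/+ pools, and Rims2 7.11 to 7.59, 7.42 to 7.75 and 7.42 to 7.91 in the same order. Rims1 spanned 6.14 to 7.96 in Prop1df/df, 7.33 to 7.77 in Pit1dw/dw and 6.62 to 7.85 in Pit1+/+ pools. Cadps spanned 5.01 to 8.00 in Prop1df/df, 6.13 to 7.33 in Pit1dw/dw and 6.30 to 8.33 in Pit1+/+ pools, and the pool with the highest value in each group was pool 3, also the highest in Prph. The log2 change of Cadps in Prop1df/df against Pit1+/+ was -0.83 (adjusted p = 0.351), and log2 change -1.40, adjusted p = 0.00289 with the pools of high Prph left out. Unc13a had a log2 change of -0.63 (adjusted p = 0.0766) against Pit1+/+. It passed without Prop1df/df pool 3 against Pit1+/+ (log2 change -0.84, adjusted p = 0.00509) and against Pit1dw/dw (log2 change -0.60, adjusted p = 0.0489), and with the pools of high Prph left out against Pit1+/+ (log2 change -0.94, adjusted p = 0.00127).

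Other genes of the pathway were taken from 6 lists. In Prop1df/df against Pit1+/+ the median log2 change of the measured members was -0.05 for the other processing genes, -0.19 for the granule membrane and biogenesis genes, -0.17 for the SNARE and docking genes, -0.16 for the synaptotagmins and calcium sensors, -0.20 for the Rab, effector and priming genes and -0.08 for the regulators, beside -0.04 over all genes. Of 11 other measured processing genes, 2 (18.2%) fell in Prop1df/df against Pit1+/+, where 7.31% of all genes fell, 1 fell and 1 rose (18.2% called) against Pit1dw/dw, where 6.26% of all genes were called, and 1 (9.09%) fell in Pit1dw/dw against Pit1+/+, where 0.605% of all genes fell. Pcsk1, for prohormone convertase 1, had 5.98, 5.79, 6.08, 5.65 and 4.57 in Prop1df/df pools, 7.76, 7.18, 7.21, 7.17 and 7.23 in Pit1dw/dw pools and 7.10, 8.03, 6.58, 7.29 and 6.66 in Pit1+/+ pools, with Prop1df/df wholly below both other groups. It fell against Pit1+/+ (log2 change -1.52, SE 0.29, adjusted p = 0.00308) and against Pit1dw/dw (log2 change -1.70, SE 0.29, adjusted p = 0.0017), which without Prop1df/df pools 1 to 3 were log2 change -2.02, adjusted p = 0.00723 and log2 change -2.20, adjusted p = 0.00579. With the ganglion and bone covariates the call against Pit1+/+ was lost (log2 change -1.14, adjusted p = 0.0605). Pcsk6, for the convertase PACE4, had 6.42, 6.28, 6.39, 5.94 and 6.37 in Prop1df/df pools, 5.67, 5.73, 5.61, 5.52 and 5.64 in Pit1dw/dw pools and 7.07, 7.50, 6.76, 7.22 and 6.45 in Pit1+/+ pools. The Pit1dw/dw pools were lowest, then Prop1df/df, then Pit1+/+, with no overlap between neighbours. Pcsk6 fell in Pit1dw/dw against Pit1+/+ (log2 change -1.37, SE 0.16, adjusted p = 0.00039), under all 29 alternatives, and in Prop1df/df against Pit1+/+ (log2 change -0.72, SE 0.16, adjusted p = 0.00886), which without Prop1df/df pools 1 to 3 was log2 change -0.84, adjusted p = 0.059. It was higher in Prop1df/df than in Pit1dw/dw (log2 change 0.65, SE 0.16, adjusted p = 0.0249), a call lost without Prop1df/df pool 1, 2 or 5 (0.0641, 0.0534 and 0.0594) or Pit1dw/dw pool 3, 4 or 5 (0.0552, 0.0665 and 0.0507), and without Prop1df/df pools 1 to 3 (log2 change 0.52, adjusted p = 0.338).

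Of 32 other granule membrane and biogenesis genes, 5 (15.6%) fell and none rose in Prop1df/df against Pit1+/+, where 7.31% of all genes fell, 4 (12.5%) fell against Pit1dw/dw, where 4.05% of all genes fell, and none was called in Pit1dw/dw against Pit1+/+. Ica1, for islet cell autoantigen 1, a protein of the Golgi and immature granule, had 6.63, 7.10, 7.13, 7.23 and 7.05 in Prop1df/df pools, 8.02, 8.16, 8.12, 7.97 and 7.95 in Pit1dw/dw pools and 8.24, 8.26, 8.22, 8.37 and 8.39 in Pit1+/+ pools. Prop1df/df did not overlap the other groups, and Ica1 fell against Pit1+/+ (log2 change -1.27, SE 0.11, adjusted p = 2.34e-06) and Pit1dw/dw (log2 change -1.01, SE 0.11, adjusted p = 2.7e-05), also without pools 1 to 3 (log2 change -1.16, adjusted p = 0.000136 and log2 change -0.91, adjusted p = 0.00127). Cyb561, the granule cytochrome that supplies electrons for amidation, fell against Pit1+/+ (log2 change -0.96, SE 0.17, adjusted p = 0.00159) and Pit1dw/dw (log2 change -0.91, SE 0.17, adjusted p = 0.00304), and without pools 1 to 3 had log2 change -0.90, adjusted p = 0.0476 and log2 change -0.85, adjusted p = 0.0866. Pick1, a partner of Ica1, fell against Pit1+/+ (log2 change -0.52, SE 0.11, adjusted p = 0.00622), and without pools 1 to 3 had log2 change -0.42, adjusted p = 0.14, and as the mean of its probe sets log2 change -0.18, adjusted p = 0.141. Ccdc186 fell against Pit1+/+ (log2 change -0.43, SE 0.10, adjusted p = 0.0122), but had log2 change -0.13, adjusted p = 0.559 as the mean of its probe sets, and log2 change -0.56, adjusted p = 0.0247 without pools 1 to 3. Against Pit1dw/dw, Syp, for the vesicle protein synaptophysin, fell (log2 change -1.48, SE 0.36, adjusted p = 0.0214), a call lost without Prop1df/df pool 1, 2 or 5 (0.059, 0.0563 and 0.0548) or Pit1dw/dw pool 3 (0.0586), and without Prop1df/df pools 1 to 3 (log2 change -1.43, adjusted p = 0.0949). Nucb2, the nesfatin precursor, fell as well (log2 change -0.45, SE 0.11, adjusted p = 0.023), a call lost without Prop1df/df pool 1 or 4 (0.0512 and 0.0548) or Pit1dw/dw pool 1, 4 or 5 (0.0547, 0.0528 and 0.06), and without Prop1df/df pools 1 to 3 (log2 change -0.51, adjusted p = 0.145).

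Of 23 other SNARE and docking genes, 2 rose and 1 (4.35%) fell in Prop1df/df against Pit1+/+ and against Pit1dw/dw, and none was called in Pit1dw/dw against Pit1+/+. Of all genes 7.31% and 4.05% fell in those comparisons, so the share of lower genes in this list was not above that of all genes against Pit1+/+ and was close to it against Pit1dw/dw, and 3.25% and 2.21% of all genes rose. Stxbp6, for amisyn, a SNARE-motif protein that binds syntaxin, rose against Pit1+/+ (log2 change 0.81, SE 0.16, adjusted p = 0.00356) and Pit1dw/dw (log2 change 0.91, SE 0.16, adjusted p = 0.00207), under all 29 alternatives. Cplx4, a complexin best known from retina, rose on a dim probe set averaging 3.69 ± 0.12 in Prop1df/df, 3.25 ± 0.06 in Pit1dw/dw and 3.18 ± 0.21 in Pit1+/+ pools (log2 change 0.51, SE 0.11, adjusted p = 0.00543 and log2 change 0.45, SE 0.11, adjusted p = 0.0184). Against Pit1dw/dw that call was lost without Prop1df/df pool 5 (0.0501) or Pit1dw/dw pool 2 (0.0559), and both calls were lost without Prop1df/df pools 1 to 3 (log2 change 0.54, adjusted p = 0.0587 and log2 change 0.48, adjusted p = 0.136). Stx3, for syntaxin 3, fell (log2 change -0.63, SE 0.13, adjusted p = 0.00415 against Pit1+/+ and log2 change -0.53, SE 0.13, adjusted p = 0.0189 against Pit1dw/dw), the second not without Prop1df/df pool 1 (0.0538). Without Prop1df/df pools 1 to 3 it had log2 change -0.62, adjusted p = 0.0176 and log2 change -0.52, adjusted p = 0.0618. The mean of its probe sets gave log2 change -0.36, adjusted p = 0.0908 against Pit1+/+ and log2 change -0.23, adjusted p = 0.33 against Pit1dw/dw, and a probe set not ending in _x_at, _s_at or _a_at gave log2 change -0.19, adjusted p = 0.751 and log2 change -0.21, adjusted p = 0.743.

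Of 22 other synaptotagmins and calcium sensors, 3 (13.6%) fell in Prop1df/df against Pit1+/+, where 7.31% of all genes fell, 2 (9.09%) fell against Pit1dw/dw, where 4.05% of all genes fell, and none was called in Pit1dw/dw against Pit1+/+. Calb1, for the calcium buffer calbindin, had 6.34, 7.19, 7.42, 6.38 and 6.27 in Prop1df/df pools, 7.76, 8.13, 7.48, 7.87 and 7.87 in Pit1dw/dw pools and 8.20, 8.95, 7.91, 7.93 and 8.48 in Pit1+/+ pools. Prop1df/df lay below both other groups without overlap (log2 change -1.58, SE 0.25, adjusted p = 0.000631 against Pit1+/+ and log2 change -1.11, SE 0.25, adjusted p = 0.012 against Pit1dw/dw), and pools 4 and 5 alone gave log2 change -1.97, adjusted p = 0.000734 and log2 change -1.50, adjusted p = 0.00672. The mean of its probe sets gave log2 change -0.41, adjusted p = 0.158 against Pit1dw/dw. Doc2b, a calcium-binding protein of release sites, fell against Pit1+/+ (log2 change -0.80, SE 0.19, adjusted p = 0.0137), and without pools 1 to 3 had log2 change -0.73, adjusted p = 0.138. Syt3 against Pit1+/+ (log2 change -0.69, adjusted p = 0.0496) and Syt17 against Pit1dw/dw (log2 change -0.77, adjusted p = 0.0427) were at the threshold, and their calls were lost without any of 13 and of 10 single pools, at adjusted p up to 0.132 and 0.11. Without Prop1df/df pools 1 to 3 they had log2 change -0.44, adjusted p = 0.306 and log2 change -0.36, adjusted p = 0.566.

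Of 31 other Rab, effector and priming genes, 5 fell and 1 rose in Prop1df/df against Pit1+/+, 3 fell and 2 rose against Pit1dw/dw, and 1 (3.23%) fell in Pit1dw/dw against Pit1+/+, where 0.605% of all genes fell. The lower genes were 16.1% and 9.68% of the list in both Prop1df/df comparisons, where 7.31% and 4.05% of all genes fell and 3.25% and 2.21% rose. Rimbp2, which links RIM proteins to calcium channels, had 7.08, 7.39, 7.15, 7.33 and 6.89 in Prop1df/df pools, 7.66, 7.72, 7.16, 7.31 and 7.26 in Pit1dw/dw pools and 8.39, 8.58, 8.02, 8.41 and 8.45 in Pit1+/+ pools. Like Syt13, it was wholly lower in both mutants than in Pit1+/+ (log2 change -1.20, SE 0.14, adjusted p = 5.64e-05 in Prop1df/df and log2 change -0.95, SE 0.14, adjusted p = 0.00284 in Pit1dw/dw), and both calls held under all 29 alternatives. Syt13 itself was called only in Prop1df/df. Madd, the exchange factor that activates Rab3, fell in Prop1df/df against Pit1+/+ (log2 change -0.95, SE 0.20, adjusted p = 0.00476) and Pit1dw/dw (log2 change -0.80, SE 0.20, adjusted p = 0.0201), the second not without Prop1df/df pool 2 (0.0563) or Pit1dw/dw pool 2 (0.0508). Without Prop1df/df pools 1 to 3 it had log2 change -0.78, adjusted p = 0.0277 and log2 change -0.63, adjusted p = 0.102. Sytl1, a Rab27 effector, fell against Pit1+/+ (log2 change -0.80, SE 0.17, adjusted p = 0.00612), and without pools 1 to 3 had log2 change -0.73, adjusted p = 0.115. Rph3al, for the Rab effector Noc2, fell against Pit1+/+ (log2 change -0.75, SE 0.20, adjusted p = 0.0228), a call lost without Prop1df/df pool 1 (0.067) or Pit1+/+ pool 1, 2 or 4 (0.0561, 0.065 and 0.0658). It also fell against Pit1dw/dw (log2 change -0.78, SE 0.20, adjusted p = 0.0264), a call lost without Prop1df/df pool 1 or 3 (0.0763 and 0.0523) or Pit1dw/dw pool 2 or 4 (0.0688 and 0.072). Without Prop1df/df pools 1 to 3 neither held (log2 change -0.49, adjusted p = 0.359 and log2 change -0.52, adjusted p = 0.403). Against Pit1dw/dw, Rims4 fell (log2 change -0.86, SE 0.15, adjusted p = 0.00224), under all 28 alternatives that gave it a value. Exph5, another Rab27 effector, rose (log2 change 0.83, SE 0.19, adjusted p = 0.0141), and without pools 1 to 3 had log2 change 0.79, adjusted p = 0.0744.

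Of 17 measured regulators of neuroendocrine genes, 2 (11.8%) fell and 1 rose in Prop1df/df against Pit1+/+, where 7.31% of all genes fell and 3.25% rose, 1 (5.88%) fell in Pit1dw/dw, where 0.605% of all genes fell, and none was called between the mutants. Rest, the repressor of neuronal genes that binds the element named above, had 9.99, 10.06, 9.17, 9.68 and 9.51 in Prop1df/df pools, 9.40, 9.10, 9.33, 9.38 and 9.25 in Pit1dw/dw pools and 9.02, 8.95, 8.94, 8.90 and 9.38 in Pit1+/+ pools. Its Prop1df/df values lay high except that of pool 3, which was below Pit1+/+ pool 5. Rest rose against Pit1+/+ (log2 change 0.65, SE 0.16, adjusted p = 0.0132), and without pools 1 to 3 had log2 change 0.56, adjusted p = 0.0558. Neurod4, a bHLH factor of pituitary and neurons, fell in Pit1dw/dw against Pit1+/+ (log2 change -2.87, SE 0.49, adjusted p = 0.00881), under all 29 alternatives, and in Prop1df/df against Pit1+/+ (log2 change -1.97, SE 0.49, adjusted p = 0.0166), which without Prop1df/df pools 1 to 3 was log2 change -3.14, adjusted p = 0.000686. Crem, a factor of the cyclic AMP response element, fell in Prop1df/df against Pit1+/+ (log2 change -0.82, SE 0.21, adjusted p = 0.0184), a call lost without Prop1df/df pool 1 or 5 (0.0542 and 0.051) or Pit1+/+ pool 2 (0.0552), and also without Prop1df/df pools 1 to 3 (log2 change -0.92, adjusted p = 0.0858) and as the mean of its probe sets (log2 change -0.26, adjusted p = 0.18).

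The ganglion and bone covariates lost further calls among the genes of these lists. In Prop1df/df against Pit1+/+ the adjusted p was then 0.075 for Pcsk6, 0.0594 for Pick1, 0.14 for Ccdc186, 0.0646 for Stx3, 0.0527 for Cplx4, 0.0521 for Syt3, 0.0546 for Doc2b, 0.166 for Rph3al, 0.0614 for Neurod4 and 0.158 for Crem. Against Pit1dw/dw it was 0.0812 for Pcsk6, 0.0689 for Nucb2, 0.146 for Stx3, 0.144 for Cplx4, 0.158 for Syt17, 0.11 for Calb1, 0.0706 for Madd and 0.165 for Rph3al. With the pools of high Prph left out, adjusted p was 0.0625 for Pcsk6, 0.0518 for Ccdc186, 0.0953 for Stx3, 0.0649 for Cplx4, 0.0507 for Syt3 and 0.0746 for Rph3al against Pit1+/+, and 0.0983 for Pcsk6, 0.0548 for Cyb561, 0.0937 for Nucb2, 0.234 for Stx3, 0.119 for Cplx4, 0.0795 for Syt17 and 0.138 for Rph3al against Pit1dw/dw. The Xist covariate gave 0.0674 for Syp, 0.0784 for Syt17, 0.0631 for Madd and 0.0818 for Rph3al against Pit1dw/dw, and a fit of only Prop1df/df and Pit1+/+ gave 0.13 for Syt3, 0.0767 for Rph3al and 0.0508 for Rest. Ica1, Stxbp6, Rims4 and Rimbp2 kept the calls named for them in both settings.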

How the data were processed

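Total RNA of 15 pools of newborn pituitaries was isolated (Ambion RNAqueous Micro kit), labelled as biotin cRNA and hybridised to 1 array each, per the labels' protocols. The authors deposited log2 signals made with RMA, per the submitters' processing notes, with the version not given in the sources used here. Values ran from 1.83 to 14.83 on the log2 scale. Arrays give no counts, so their number, 5 pools a group, limits the precision.

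Of 45101 probe sets, 64 were controls, 34945 named 1 gene in the platform annotation given, 932 several and 9160 none. Only those naming 1 gene were used, matched by ID to current records for 34741, with no symbol changed. Of the 18193 genes, 9010 had several probe sets, and the brightest over all arrays was taken.

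limma 3.58.1 in R 4.3.3 fitted 1 mean per group to all 15 arrays with eBayes, after a test on simulated data. The threshold was an adjusted p of 0.05. The members and lists were chosen with earlier results of these data known. All 33 members are accounted for, with every pool's value for those called in any comparison and those that define their class. From each other list, up to 4 called genes per comparison with the smallest adjusted p are named, and all 7 hormone genes are given as label checks. Some genes of the other lists, Pcsk2, Syt15, Sytl3, Sytl5 and Rfx6 among them, were not analysed here. Pools were grouped by title. Same-numbered pools of different groups deviated together in 8 of 15 pairs (correlation above 0.1, range -0.309 to 0.674). Those numbered 3 did so in every comparison (0.639, 0.674 and 0.509). The titles give only a replicate number, so the main fit did not pair the pools, and a replicate block was an alternative.

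The alternatives were median centring, a second quantile normalisation, the mean over all probe sets of a gene, leaving out dim or _x_at, _s_at and _a_at probe sets, a trended robust prior, array weights, a fit of only the pair of groups compared, a replicate block, ganglion and bone or Xist covariates, leaving out pools with Prph above 7, and leaving out each pool. Leaving out Prop1df/df pools 1 to 3, and the 3' minus 5' signal of control genes as a covariate, were chosen after seeing the data. Promoter windows came from RefSeq, build GRCm38.p6.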

Additional observations from a re-analysis of the deposited data

Results flagged for a closer look

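In 8 of 99 gene and group combinations (8.08%), 1 pool lay far from the other 4 by Dixon's test, where chance gives about 1 in 20. Pit1+/+ pool 5 had the lowest Pcsk1n, 6.80 against 9.12 in the next pool, and the lowest Cplx2, 7.73 against 8.44. Pit1+/+ pool 3 had the highest Rims1, 7.85 against 6.86, and also the highest Prph of its group.

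Pit1dw/dw pool 5 had the lowest Rab27a, 7.11 against 9.40, and the lowest Ptprn2, 8.69 against 8.99. Pit1dw/dw pool 2 had the highest Resp18, 11.21 against 10.87, and Pit1dw/dw pool 4 the lowest Snap25, 10.56 against 10.82. Prop1df/df pool 3 had the lowest Sytl4, 8.59 against 9.03.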

How the results depend on the processing

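Over 29 alternatives, no called direction of the 33 genes was reversed. Of the 14 genes called in Prop1df/df against Pit1+/+, Chga, Chgb, Scg3 and Ptprn2 kept their call in every one, and of the 11 against Pit1dw/dw, Chga, Chgb, Scg3 and Rab3b did. Neither call in Pit1dw/dw against Pit1+/+ did. Cadps, Ica1, Cplx4, Doc2b, Sytl1 and Rims4 had no value under 1 alternative each, which left out their probe sets. The counts below are of genes called, and the cause of their shifts was not tested beyond the samples or genes an alternative leaves out.

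In Prop1df/df against Pit1+/+, secretion genes called were 14, against 9 with only those groups fitted and 5 without Prop1df/df pools 1 to 3. All genes called were 1920, against 4297 with array weights, 1228 with the ganglion and bone covariates and 890 without Prop1df/df pools 1 to 3. In Prop1df/df against Pit1dw/dw, secretion genes were 11, against 5 without Prop1df/df pools 1 to 3. All genes were 1139, against 2390 with array weights, 746 without pools of high Prph and 503 without Prop1df/df pools 1 to 3. In Pit1dw/dw against Pit1+/+, secretion genes were 2, against 1 with median centring or the Xist covariate, 5 with array weights and 0 without pools of high Prph. All genes were 140, against 571 with array weights and 51 without pools of high Prph.

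Leaving out 1 pool gave 9 to 16 secretion genes in Prop1df/df against Pit1+/+ (9 without Prop1df/df pool 1 or Pit1+/+ pool 4), 8 to 17 against Pit1dw/dw (17 without Prop1df/df pool 3) and 1 to 2 in Pit1dw/dw against Pit1+/+. All genes called then numbered 1401 to 3258 (3258 without Pit1+/+ pool 5), 826 to 1578 and 83 to 161 (93 or fewer without Pit1dw/dw pool 2, 4 or 5 or Pit1+/+ pool 2 or 4). With the replicate number as a block, 15, 13 and 2 secretion genes and 2138, 1313 and 137 of all genes were called in the same order of comparisons. Whether same numbers mark a shared preparation was not tested.

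Other calls lost among the secretion genes are given with their adjusted p. With the ganglion and bone covariates it was 0.111 for Scg5, 0.0841 for Ptprn, 0.0501 for Resp18, 0.122 for Syt4, 0.121 for Rab3b and 0.303 for Sytl4 in Prop1df/df against Pit1+/+, 0.0681 for Scg5, 0.0822 for Pcsk1n, 0.141 for Syt4 and 0.0812 for Scgn against Pit1dw/dw and 0.056 for Chgb in Pit1dw/dw against Pit1+/+. Without pools of high Prph it was 0.074 for Rab3b and 0.0647 for Sytl4, then 0.0853 for Pcsk1n, 0.0757 for Resp18, 0.0816 for Syt4 and 0.106 for Scgn, then 0.196 for Chgb and 0.179 for Scgn, in the same order of comparisons. With the Xist covariate it was 0.0724 for Pcsk1n, 0.123 for Stx1a and 0.0532 for Scgn in Prop1df/df against Pit1dw/dw and 0.0698 for Chgb in Pit1dw/dw against Pit1+/+. Averaging the probe sets of each gene gave 0.113 for Cplx2 against Pit1+/+ and 0.0708 for Stx1a against Pit1dw/dw, and leaving out _x_at, _s_at and _a_at probe sets 0.139 for Stx1a against Pit1dw/dw. The 3' minus 5' covariate gave 0.0581 for Cplx2 in Prop1df/df and 0.0756 for Chgb in Pit1dw/dw, both against Pit1+/+, and median centring 0.065 for Chgb in Pit1dw/dw. With only Prop1df/df and Pit1+/+ fitted it was 0.0581 for Ptprn, 0.0701 for Stx1a, 0.0643 for Rab3b, 0.0876 for Cplx2 and 0.0663 for Sytl4. Adjusted p ran from 0.00218 to 0.196 for Chgb in Pit1dw/dw against Pit1+/+ over the alternatives, and from 0.000669 to 0.179 for Scgn. Signals near background limit what can be seen of Unc13a, whose Prop1df/df pools lay around the array medians.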
